A study of Mus musculus with 30 samples.

Results

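Parathyroid hormone, the proteins that sense calcium and the enzymes and receptor of vitamin D were followed through 30 mouse thyroid libraries as 8 named genes: Pth, Gcm2, Casr, Vdr, Cyp27b1, Cyp24a1, Kl and Gata3. The rule lists these genes by name and sets no threshold, and all 8 were found among the 50686 genes counted. The genes were chosen by name with their CPM levels and age and genotype differences in these same libraries known, so the levels below are a description and a p-value of a listed gene is no independent support. The libraries were poly(A) RNA sequencing of C57BL/6 thyroids in 10 groups of 3: FAD4T and WT males of 2 months, FAD4T and WT females of 2 months, FAD4T and WT males of 8 months, FAD4T and WT females of 8 months, and, as an ageing set, WT males of 18 months and further WT males of 2 months that the titles number 4 to 6. No treatment is given for any group. The labels do not say what FAD4T stands for, which alleles those mice carry, or whether glands were pooled. They also do not say whether the parathyroid glands, which sit on or in the thyroid, were left on it. The counts per gene summed to between 14083958 and 20256049 per library.

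Parathyroid chief cells secrete parathyroid hormone when blood calcium falls. The calcium-sensing receptor, encoded by Casr, restrains that secretion, and the transcription factors Gcm2 and Gata3 are needed to form the gland and keep it. Parathyroid hormone acts on kidney and bone, and in the kidney it raises the 1-alpha-hydroxylase encoded by Cyp27b1, which makes active vitamin D. The 24-hydroxylase encoded by Cyp24a1 breaks that hormone down. The vitamin D receptor, Vdr, and klotho, the co-receptor of the phosphate hormone FGF23 encoded by Kl, are both known in parathyroid cells and in kidney tubules. Follicular cells, which make thyroid hormone, and C cells, which make calcitonin, form the epithelium of the thyroid itself.

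The promoters of 4 of the genes are shown because 3 of them (Pth, Gcm2 and Casr) varied together between libraries and 1 (Cyp27b1) did not. Each run holds 250 bases before to 50 bases after the gene start, from RefSeq on GRCm38.p6, written 5′ to 3′ on the strand of the gene. Of the 8 genes, 7 had an entry, and Cyp24a1 had none. Pth, at chr7:113385580-113388570 on the minus strand, has its promoter window at chr7:113388524-113388823. Gcm2 lies at chr13:41101427-41109988 on the minus strand, with the window at chr13:41109939-41110238. Casr lies at chr16:36493696-36562141 on the minus strand, with the window at chr16:36562085-36562384. Cyp27b1 lies at chr10:127048250-127053006 on the plus strand, with the window at chr10:127047996-127048295. Capitals mark matches to the GATA factor motif AGATAA, which reads TTATCT on the other strand.
Pth: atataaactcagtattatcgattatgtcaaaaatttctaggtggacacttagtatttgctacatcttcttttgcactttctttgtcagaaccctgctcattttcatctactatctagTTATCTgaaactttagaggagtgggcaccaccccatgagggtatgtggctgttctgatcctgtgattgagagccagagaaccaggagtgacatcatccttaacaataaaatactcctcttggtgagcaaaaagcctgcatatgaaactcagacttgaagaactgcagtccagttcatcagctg
Gcm2: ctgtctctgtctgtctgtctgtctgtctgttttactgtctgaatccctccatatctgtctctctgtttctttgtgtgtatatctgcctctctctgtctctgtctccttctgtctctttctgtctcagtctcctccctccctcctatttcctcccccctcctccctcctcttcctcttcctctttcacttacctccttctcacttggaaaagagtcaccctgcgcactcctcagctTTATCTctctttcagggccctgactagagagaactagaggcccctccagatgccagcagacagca
Casr: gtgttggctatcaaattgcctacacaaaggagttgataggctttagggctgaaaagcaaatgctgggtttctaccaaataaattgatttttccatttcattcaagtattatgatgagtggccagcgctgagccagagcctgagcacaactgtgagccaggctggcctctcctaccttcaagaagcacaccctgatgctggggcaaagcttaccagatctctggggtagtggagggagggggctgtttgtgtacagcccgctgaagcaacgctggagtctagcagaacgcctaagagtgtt
Cyp27b1: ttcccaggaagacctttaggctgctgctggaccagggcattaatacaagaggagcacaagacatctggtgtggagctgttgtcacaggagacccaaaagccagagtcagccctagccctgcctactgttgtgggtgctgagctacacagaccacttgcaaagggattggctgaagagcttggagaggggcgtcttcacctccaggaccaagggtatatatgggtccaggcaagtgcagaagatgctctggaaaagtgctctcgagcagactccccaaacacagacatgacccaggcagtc
Both strands were searched, with no motif counted inside another. AGATAA was present in 2 of the 7 windows, starting at base -133 of Pth and base -15 of Gcm2 relative to the gene start, and in 11.2% of 32851 promoter windows of the same length. The related motif TGATAA was in 0 of the 7 and in 9.05% of all windows. The GCM motif ATGCGGGT was in 0 of the 7 and in 0.256% of all windows, and the vitamin D receptor element, a direct repeat of half-sites with 3 spacer bases, was in 0 of the 7 and in 0.0396%. With 1 mismatch allowed that element was again in 0 of the 7, and in 1.73% of all windows. These matches describe letters in a window and are not binding sites.

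Levels are given as CPM, the count scaled to a common library total with TMM factors over all 30 libraries. Pth ranged from 5.2 to 35975 CPM with a median of 8557 CPM, which is 91 to 568746 counts. In the richest library, a WT female of 8 months, this 1 gene took 3.81% of all counts. Per kilobase of exon, the median library ordered the genes as Pth at 12053 CPM per kb, then Gcm2 at 30.3, Kl at 25.4, Vdr at 17.2, Casr at 10.9, Gata3 at 4.74 and Cyp27b1 at 2.47 CPM per kb, with Cyp24a1 at 0. The spread over libraries of each of the 6 genes from Gcm2 to Cyp27b1 was wider than the gap to its neighbour in this order.

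Pth split the libraries into 2 sets with nothing between them. In FAD4T males of 2 months it stood at 10387, 11613 and 22861 CPM, against 10573, 9525 and 7747 CPM in WT males of that age. In FAD4T females of 2 months it stood at 53.1, 18848 and 5422 CPM, against 32015, 77.9 and 6670 CPM in WT females. The 2-month males numbered 1 to 3 were all high in both genotypes, while FAD4T and WT females of 2 months each held 1 low library. In FAD4T males of 8 months Pth stood at 8580, 8535 and 63.4 CPM, against 128, 17157 and 70 CPM in WT males. In FAD4T females of 8 months it stood at 158, 12544 and 16723 CPM, against 61, 35975 and 12310 CPM in WT females. In the ageing set it stood at 8040, 11728 and 5.2 CPM in the males of 18 months, against 4861, 11.6 and 11040 CPM in those of 2 months. Low libraries were thus present in FAD4T and in WT mice, at each age and in both sexes, and the groups overlapped in every comparison.

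Gcm2, the transcription factor that specifies parathyroid cells, marked the same split. It lay below 5 CPM in 9 of the 30 libraries, at 0 to 1.46 CPM and 0 to 20 counts, and at 46.2 to 276 CPM in the other 21. The 9 libraries were 1 of 3 in FAD4T males of 8 months, FAD4T females of 2 and of 8 months, WT females of 2 and of 8 months, and each group of the ageing set, 2 of 3 in WT males of 8 months, and 0 of 3 in FAD4T or WT males of 2 months. In these 9 libraries Pth was at 5.2 to 158 CPM, against 4861 to 35975 CPM in the 21. Kl was at 2.24 to 31.7 CPM in the 9 and 140 to 747 CPM in the 21, and Gata3 at 0.405 to 2.62 CPM in the 9 and 12.6 to 72.8 CPM in the 21. Vdr was at 24.6 to 39.8 CPM in the 9 and 62 to 207 CPM in the 21, and Casr at 5.36 to 19 CPM in the 9 and 21.2 to 319 CPM in the 21. So 5 further listed genes had no overlap between these libraries, with Vdr and Casr keeping the largest share of their level where Gcm2 was near 0. The libraries were divided by Gcm2 after the data were seen, and these genes vary with Gcm2, so the separation is a description and no independent result. The share of all genes without overlap between the same libraries was not computed. In bulk tissue, fewer parathyroid cells and less RNA of these genes per cell cannot be told apart.

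**Figure D1:**
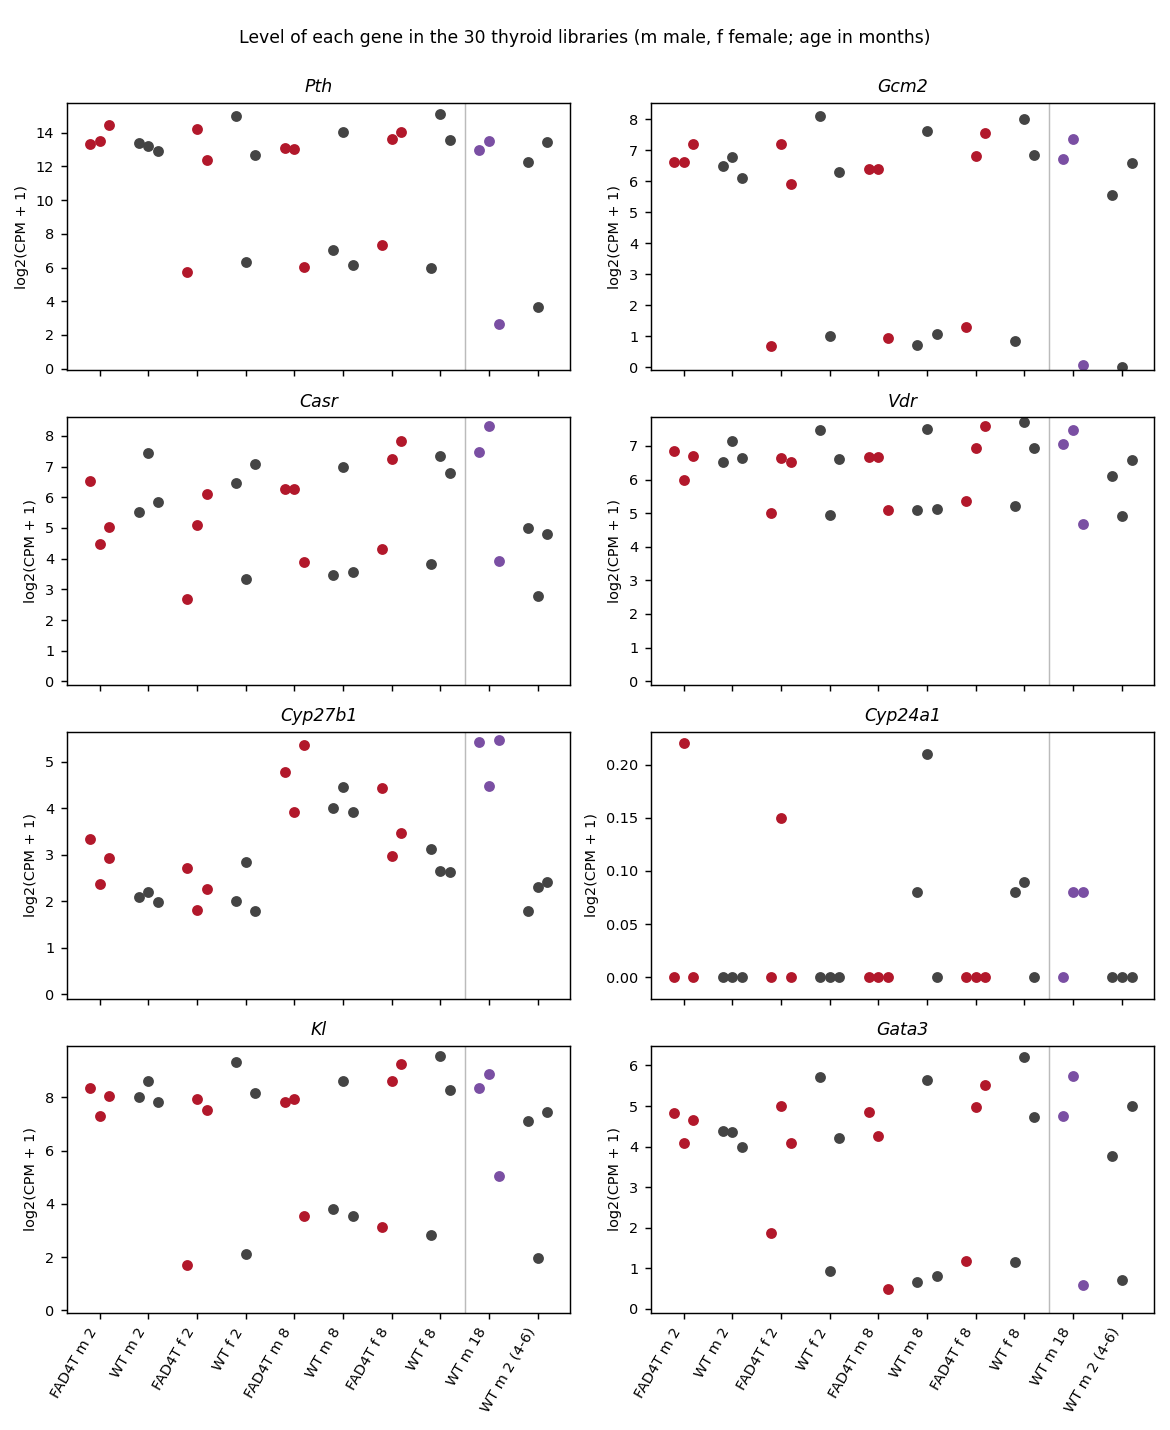
Level of each of the 8 genes as log2(CPM + 1) on the vertical axis, with its own scale for each gene, in the 10 groups (m male, f female, age in months, 3 libraries each; red FAD4T, grey WT, purple WT of 18 months). Pth, Gcm2, Casr, Vdr, Kl and Gata3 drop together in the same 9 libraries, Cyp27b1 does not, and Cyp24a1 stays at or near 0.

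Further genes known from parathyroid tissue and its neighbours were checked beside these. Chga, encoding chromogranin A of secretory granules, was at 31.2 to 162 CPM in the 9 libraries and 6220 to 31302 CPM in the 21. Chgb, a second granin, overlapped, at 10.7 to 67.9 CPM in the 9 and 6.55 to 64.2 CPM in the 21. Calca, which encodes calcitonin in C cells, overlapped as well, at 2514 to 6311 CPM in the 9 and 2591 to 5884 CPM in the 21. Tg, encoding thyroglobulin of follicular cells, was at 66299 to 303047 CPM in the 9 and 37082 to 234656 CPM in the 21. The whole C cell list of 8 genes, which includes Chga, did not overlap, with summed levels of 3415 to 7676 CPM in the 9 and 11894 to 35327 CPM in the 21. Without Chga its other 7 genes summed to 3384 to 7575 CPM in the 9 and 3249 to 6811 CPM in the 21, and each of the 7 overlapped. The 9 follicular genes summed to 68598 to 310079 CPM in the 9 and 38721 to 240045 CPM in the 21, and each of them overlapped as well.

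Across the 30 libraries the listed genes other than Cyp27b1 and Cyp24a1 followed Pth closely. Pearson's r of log2(CPM + 1) with Pth was 0.99 for Gcm2, 0.96 for Gata3, 0.93 for Kl, 0.93 for Vdr and 0.81 for Casr, over libraries that share their depth scaling and fall into the clusters described, so the coefficients mostly express that split. For Cyp27b1 it was -0.34. The 10 genes most like Pth by the same measure were Chga, Gcm2, Rhcg, Sycp2l, Pcyt1b, Spink8, Mcoln3, Qpct, Rasal1 and Aldh1a3, at r from 0.97 to 0.99. Gcm2 was followed most closely by Sycp2l, Rhcg and Chga, and Gata3 by Rasal1, Anpep and Fam222a. For Kl they were Lrrn1, Hspa2 and Esrrg, for Vdr Lama1, Rnf217 and Syn2, and for Casr Rapgef5, Myh10 and Tbc1d1. For Cyp27b1 they were Dpysl5, Csmd2 and Glipr2, each at r = 0.91, none of which was among those of another listed gene.

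**Figure D2:**
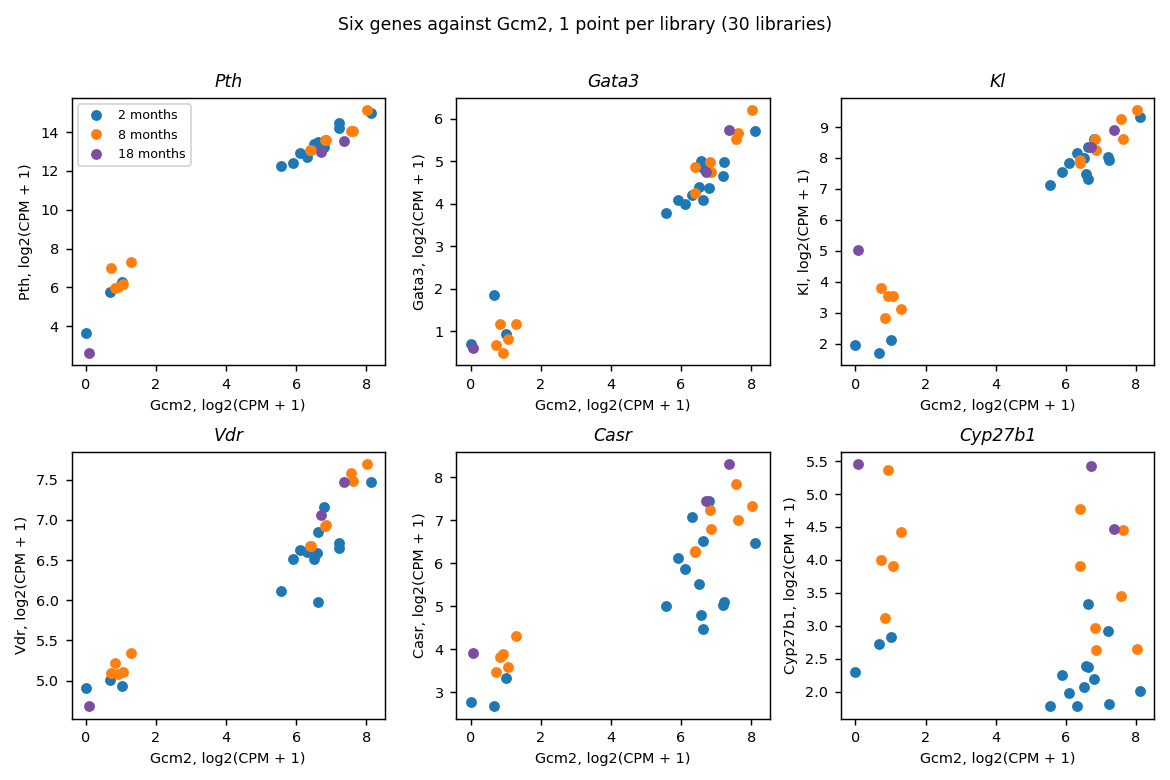
Each of 6 genes on the vertical axis against Gcm2 on the horizontal axis, both as log2(CPM + 1), with 1 point per library (30 libraries, coloured by age). Pth, Gata3, Kl, Vdr and Casr form a low and a high cloud with Gcm2, Casr with the widest scatter in the high cloud, and Cyp27b1 overlaps between the clouds.

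Within the 21 libraries, the genes were compared as counts per Gcm2 count. Vdr and Casr kept part of their level in the libraries where Gcm2 was near 0, so that part of their ratios still varies with the amount of Gcm2. Pth gave 71.3 to 155 counts per Gcm2 count, Gata3 0.164 to 0.331, Kl 1.63 to 3.61 and Vdr 0.636 to 1.54, each a range of 2.02-fold to 2.42-fold. Casr gave 0.217 to 1.94, an 8.94-fold range, so the calcium-sensing receptor varied more than the others relative to Gcm2. In FAD4T males of 2 months the ratio was 0.931, 0.217 and 0.217, against 0.501, 1.57 and 0.846 in WT males. In the 2 FAD4T females of 2 months with Gcm2 it was 0.223 and 1.17, against 0.32 and 1.72 in WT females. These groups overlapped and the ratio differed several-fold between mice of 1 group. At 8 months it was 0.905 and 0.919 in FAD4T males, against 0.651 in the only WT male, and 1.33 and 1.21 in FAD4T females, against 0.622 and 0.953 in WT females. At 18 months it was 1.69 and 1.94, against 0.673 and 0.282 in the males of 2 months numbered 4 and 6. The 5 lowest ratios, at 0.217, 0.217, 0.223, 0.282 and 0.32, were in libraries whose mitochondrial transcripts took 5.99%, 4.07%, 6.17%, 5.22% and 5.94% of counts, against 1.94% to 4.02% in the other 16. In the same 5 libraries, in the order just given, Tg took 8.9%, 6.7%, 4.6%, 14.5% and 5.6% of counts, against 10.4% to 22.2% in the other 16. The 9 thymocyte genes summed there to 393, 103, 268, 13.3 and 53.3 CPM, against 4.59 to 86.9 CPM in the other 16. The part of these measures in the ratio was not tested.

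**Figure D3:**
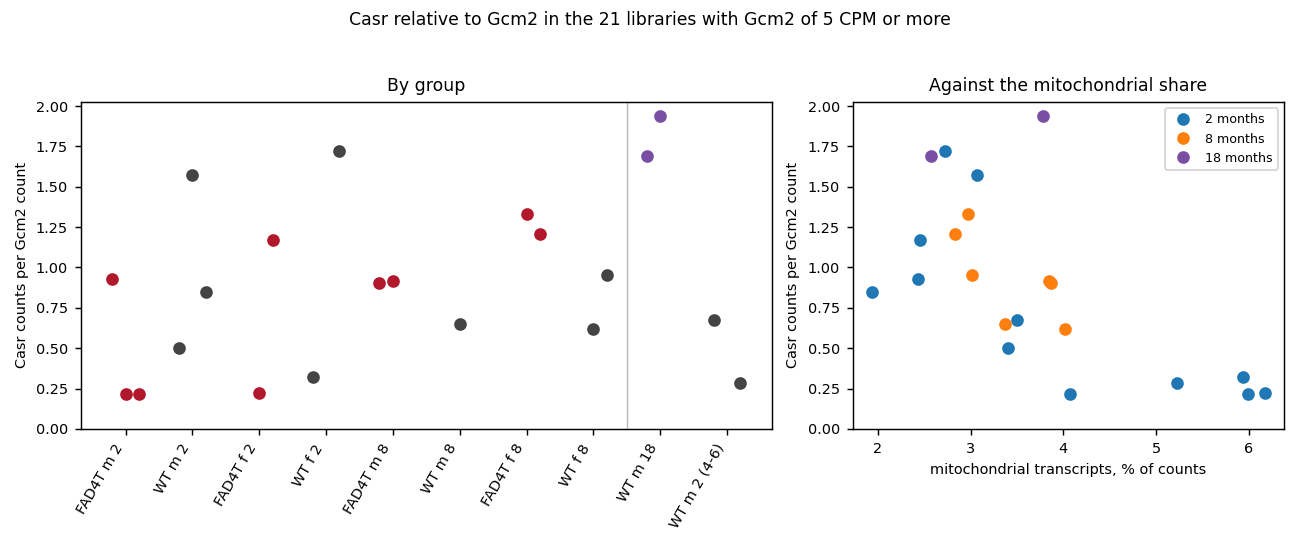
Casr counts per Gcm2 count in the 21 libraries with Gcm2 at 5 CPM or more, by group on the left (red FAD4T, grey WT, purple WT of 18 months) and against the mitochondrial share of counts in percent on the right (coloured by age). The 2 points of 18 months stand at 1.69 and 1.94, and the 5 lowest points, at 0.217 to 0.32, have the highest mitochondrial shares.

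Differences between groups were tested with edgeR's quasi-likelihood test over all genes, with Benjamini-Hochberg adjustment at 0.05. Of the 8 genes, 7 passed the filter on low counts, and Cyp24a1 did not. In each of the 4 comparisons of FAD4T with WT mice, and in their average over sexes and ages, 0 of the 7 passed by edgeR and 0 by DESeq2. Among all 18493 genes tested the share that passed by edgeR was 0.0% in males and in females of 2 months, 0.0% in males of 8 months, 0.0216% in females of 8 months and 0.0% in the average. By DESeq2 it was 0.553% in males and 1.59% in females of 2 months, 0.0% in males and 0.412% in females of 8 months, and 1.7% in the average. At an unadjusted p under 0.05 by edgeR there was 1 of the 7 in males of 2 months, in females of 8 months and in the average, which was Cyp27b1 each time. There were 0 in females of 2 months and in males of 8 months. Among all 18493 genes, 2679 had such a p in males of 2 months, 862 in females of 8 months and 2855 in the average. In females of 2 months it was 3087, and in males of 8 months 335. For the 6 genes of the parathyroid pattern, log2 fold changes of FAD4T over WT were between -1.13 and 0.70, with standard errors of 0.39 to 2.19 and adjusted p of 0.639 to 1. With such errors, changes of several-fold in either direction could not be detected in single groups.

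**Figure D4:**
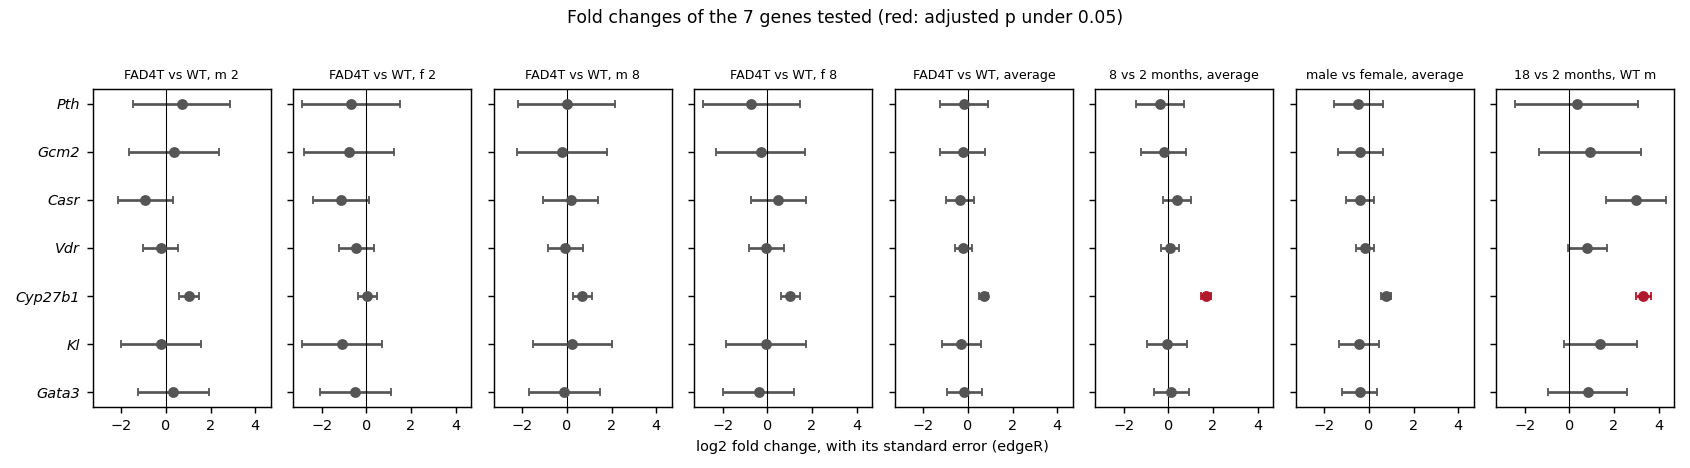
Log2 fold change (horizontal axis, 1 panel per comparison, first-named group over second, with its standard error from edgeR) of the 7 genes tested. Red marks an adjusted p under 0.05, which Cyp27b1 had at 8 against 2 months and at 18 against 2 months, and the bars of Pth, Gcm2, Kl and Gata3 are the longest in most panels.

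The same 6 genes did not pass between ages or sexes. At 8 against 2 months, averaged over sexes and genotypes, their log2 fold changes lay between -0.38 and 0.37, and in males against females between -0.47 and -0.18. At 18 against 2 months they lay between 0.32 and 2.99, with adjusted p of 0.162 to 0.942. Casr gave the largest of these. It stood at 176, 319 and 14.1 CPM in the males of 18 months, against 31.1, 5.8 and 26.8 CPM in those of 2 months, which is a log2 fold change of 2.99 ± 1.35 (SE, n = 3 each) with an adjusted p of 0.162 by edgeR. The groups overlapped through the 18-month library in which Gcm2 was at 1 count.

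The result for Casr at 18 months depended on the test, on a covariate and on which libraries entered. DESeq2 gave 3.02 ± 1.18 (SE) with an adjusted p of 0.0309, and 38.5% of all genes passed there. Without the 2 libraries of Gcm2 below 5 CPM, edgeR gave 3.10 ± 0.32 with an adjusted p of 0.0157, and with the Gcm2 level as a covariate 2.15 ± 0.40 with 0.0151. Set against the 2-month males numbered 1 to 3 it was 0.89 ± 1.25 with an adjusted p of 0.713, and those males stood at 45.3, 173 and 57.2 CPM. The call for the receptor at 18 months thus turned on the test and covariate, within the same 6 libraries, and on the choice of libraries. Pth itself stood at 77.2 and 71.3 counts per Gcm2 count at 18 months, against 105 and 116 at 2 months, and its log2 fold change was 0.32 ± 2.76, but -1.15 ± 0.24 with the Gcm2 level as a covariate (adjusted p = 0.00804 by edgeR). Without the 2 libraries of Gcm2 below 5 CPM Pth gave 0.32 ± 0.47 with an adjusted p of 0.666. In those same 4 libraries Vdr gave 0.92 ± 0.22 (adjusted p = 0.0395) and Kl 1.35 ± 0.25 (adjusted p = 0.024), neither of which passed in all 6 libraries. Of all genes, 15.8% passed in these 4 libraries.

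Cyp27b1, the enzyme that activates vitamin D, went its own way and rose with age. At 8 months it averaged 15.5 ± 10.3 CPM, against 4.43 ± 2.02 CPM at 2 months (SD, n = 12 each), a log2 fold change of 1.67 ± 0.22 (SE) with an adjusted p of 6.14e-05 by edgeR. It was the only one of the 7 tested genes to pass there, which is 14.3%, beside 32.6% of all genes, 15.8% higher and 16.8% lower. By p it ranked 74 among 18493 genes, and by fold 263 among the 2915 genes that rose. At 18 months it averaged 35.3 ± 12.3 CPM, against 3.54 ± 0.98 CPM at 2 months (SD, n = 3 each), a log2 fold change of 3.31 ± 0.34 (SE) with an adjusted p of 0.0012 by edgeR. Again it was 1 of 7, beside 35.9% of all 16283 genes tested, 17.1% higher and 18.8% lower, and it ranked 59 by fold among the 2782 genes that rose. Many genes thus changed with age in these libraries. The share of the listed genes that passed was below the background, but it rests on 7 genes. The other 6 had standard errors of 0.39 to 1.09 at 8 against 2 months and 0.87 to 2.76 at 18 against 2 months. Without libraries of Gcm2 below 5 CPM, 4 listed genes passed at 18 against 2 months, beside 15.8% of all genes, so the order was reversed there.

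By group, Cyp27b1 stood at 26.3, 14 and 40.2 CPM in FAD4T males of 8 months, against 9.1, 4.17 and 6.61 CPM in FAD4T males of 2 months. In WT males it stood at 15, 20.9 and 14 CPM at 8 months, against 3.24, 3.61 and 2.98 CPM at 2 months. In FAD4T females it stood at 20.4, 6.86 and 10 CPM at 8 months, against 5.58, 2.51 and 3.8 CPM at 2 months. None of these 3 pairs of groups overlapped, with ratios of the means of 4.05, 5.08 and 3.13, and the same held for 32.7% of all genes in FAD4T males, 21.2% in WT males and 30.6% in FAD4T females. In WT females it stood at 7.7, 5.29 and 5.19 CPM at 8 months, against 3.04, 6.09 and 2.43 CPM at 2 months, which overlapped, with a ratio of the means of 1.57. In the ageing set it stood at 41.8, 21.1 and 42.9 CPM at 18 months, against 2.43, 3.92 and 4.28 CPM at 2 months, without overlap, as for 51.4% of all genes tested there. Cyp27b1 was at 3.92 to 42.9 CPM (median 14) in the 9 libraries with low Gcm2 and 2.43 to 41.8 CPM (median 5.19) in the other 21. In 6 of the 8 groups that held a library with low Gcm2, such a library had the highest Cyp27b1 of its group. The share of all genes for which the same held was not computed. Over the 30 libraries Cyp27b1 had a Pearson's r of -0.3 and a Spearman's rho of -0.12 with Gcm2. Without those 9 the log2 fold change was 1.64 ± 0.19 (adjusted p = 0.00181) at 8 against 2 months, where 4.39% of all genes passed, and 3.24 ± 0.46 (adjusted p = 0.0219) at 18 against 2 months, by edgeR.

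**Figure D5:**
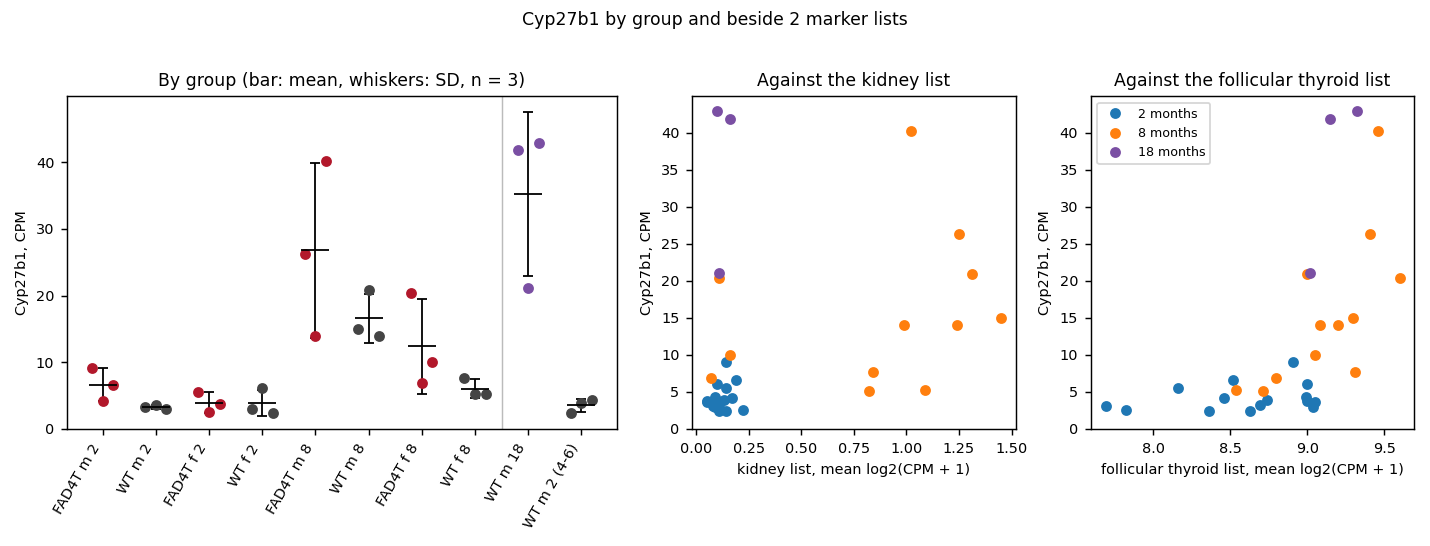
Cyp27b1 in CPM by group on the left (points libraries, bars mean, whiskers SD, n = 3; red FAD4T, grey WT, purple WT of 18 months), and against the mean log2(CPM + 1) of the kidney list and of the follicular thyroid list (30 libraries, coloured by age). The 3 libraries of 18 months, at 21.1 to 42.9 CPM, have kidney levels as low as those of 2 months, and the higher values sit at the right of the follicular list.

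The kidney is the main known site of Cyp27b1, and a list of 10 kidney genes moved with age in part of the samples. Its summed level was 21.3 to 32.4 CPM in FAD4T males of 8 months, against 1.1 to 1.6 CPM at 2 months, 17.8 to 44 CPM in WT males of 8 months, against 0.387 to 0.782 CPM at 2 months, and 11 to 14 CPM in WT females of 8 months, against 0.619 to 0.849 CPM at 2 months. In FAD4T females it stayed at 0.544 to 1.31 CPM at 8 months, with Umod, Slc34a1 and Slc22a6 at 0 counts, against 0.409 to 2.02 CPM at 2 months, with Slc34a1, Slc22a6 and Kap at 0 counts. In the ageing set it was 0.743 to 1.24 CPM at 18 months, with Kap at 0 counts, against 0.702 to 1.13 CPM at 2 months, with Umod, Slc12a1, Slc34a1 and Kap at 0 counts. Cyp27b1 was higher than at 2 months in FAD4T females of 8 months and in males of 18 months, where the kidney genes were near 0. In the other groups of 8 months the kidney genes rose with age, so the 2 cannot be told apart there. The source of the Cyp27b1 transcript was not tested. Of the 9 kidney genes tested at 8 against 2 months, 4 rose and 0 fell, which is 44.4%, beside 32.6% of all genes. With the kidney level as a covariate, Cyp27b1 at 8 against 2 months was 2.44 ± 0.89 with an adjusted p of 0.362, and 0 of all genes passed in that fit. At 18 against 2 months that fit gave 3.32 ± 0.38 with an adjusted p of 0.00296.

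The mean level of 9 follicular thyroid genes correlated with Cyp27b1 at r = 0.68 over the 30 libraries, which mix ages. With the adipocyte list r was -0.59. With the other lists of tissue and cell type genes it lay between -0.33 (C cell) and 0.43 (kidney). Of the 9 follicular genes, 5 rose and 1 fell at 8 against 2 months, which is 66.7%, beside 32.6% of all genes. In the ageing set 2 rose and 0 fell, which is 22.2%, beside 35.9% of all genes. With the follicular level as a covariate Cyp27b1 still passed, at 1.20 ± 0.25 (adjusted p = 0.00541) and 2.52 ± 0.40 (adjusted p = 0.0109) by edgeR.

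Differences of Cyp27b1 with genotype and sex did not pass. FAD4T mice averaged 12.5 ± 11.3 CPM, against 7.46 ± 5.95 CPM in WT mice (SD, n = 12 each), a log2 fold change of 0.70 ± 0.22 (SE) with p = 0.00414 unadjusted and 0.2 adjusted by edgeR. It was higher in FAD4T males of 2 months, at 1.02 ± 0.44 with no overlap of the groups, as for 12.1% of all genes, but with an adjusted p of 0.343. In females of 2 months it was 0.04 ± 0.44, in males of 8 months 0.69 ± 0.42 and in females of 8 months 1.03 ± 0.43, with adjusted p of 0.972, 1 and 1 by edgeR and overlapping groups. The FAD4T effect differed by 0.32 ± 0.43 between males and females and by 0.33 ± 0.43 between 8 and 2 months, with adjusted p of 1 and 0.683. Without the low-Gcm2 libraries outside the ageing set, which include 2 of the 3 WT males of 8 months, the average was 0.46 ± 0.19. With the follicular level as a covariate the average was 0.66 ± 0.18 with an adjusted p of 0.0443 by edgeR, and 1020 of all 18493 genes passed there.

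Males averaged 13.3 ± 11.3 CPM of Cyp27b1, against 6.58 ± 4.89 CPM in females (SD, n = 12 each), a log2 fold change of 0.76 ± 0.22 (SE) with an adjusted p of 0.0825 by edgeR. In that comparison 0 of the 7 genes passed by edgeR and 1, Cyp27b1, by DESeq2 (adjusted p = 0.0182), beside 1.88% of all genes by edgeR and 3.83% by DESeq2. At an unadjusted p under 0.05 by edgeR there was 1 of the 7, beside 2422 of all 18493 genes. Without the low-Gcm2 libraries outside the ageing set, which include 2 of the 3 WT males of 8 months, the log2 fold change of Cyp27b1 was 1.13 ± 0.19. Leaving out WT female 2 of 2 months, FAD4T male 2 of 8 months or FAD4T female 1 of 8 months brought it to an adjusted p of 0.0318, 0.0437 and 0.026. The groups did not overlap in 1 of the 4 strata, WT mice of 8 months, as for 12.5% of all genes there. The rise from 2 to 8 months differed between males and females by 1.01 ± 0.43, with an adjusted p of 0.663 by edgeR, in a test that 0.0162% of all genes passed. In the interactions of FAD4T with sex and with age, 0.0% of all genes passed.

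Cyp24a1, which breaks active vitamin D down, was close to undetected. It had 13 counts in all 30 libraries together, 0 counts in 22 libraries and at most 3 in any, where a count of 0 allows up to 0.148 to 0.213 CPM, covering counting error only. The 8 libraries with a count came from FAD4T males and females of 2 months, WT males and females of 8 months and WT males of 18 months. Its exons share 83 bases, 2.3% of their length, with Pfdn4 on the other strand, and the counting used no strand. Gata3 shares 155 bases (3.9%) with Gm13256 on the other strand and 77 bases (1.9%) with 9230102O04Rik on its own, so a small part of its counts is uncertain in the same way.

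Other genes of the pathway were taken from 5 lists. In parathyroid hormone signalling and calcium sensing, 9 of 13 genes could be tested. At 8 against 2 months 2 rose and 1 fell, which is 33.3%, beside 32.6% of all genes, with a median log2 change of -0.01 beside -0.01 over all genes. At 18 against 2 months 2 rose and 2 fell, which is 44.4%, beside 35.9% of all genes, with a median of 0.01 beside -0.01. Pth1r, the receptor of parathyroid hormone, fell to 3.97 ± 1.54 CPM at 8 months, against 6.67 ± 3.25 CPM at 2 months (SD, n = 12 each), by 0.64 on the log2 scale (adjusted p = 0.0121 by edgeR). Ap2s1, an adaptor subunit whose mutation in humans alters calcium sensing, fell to 47.1 ± 2.07 CPM at 18 months, against 103 ± 18.2 CPM at 2 months (SD, n = 3 each; adjusted p = 0.00142 by edgeR). Gnaq, a G protein subunit that couples to the calcium-sensing receptor, rose to 75.8 ± 5.2 CPM, against 49.3 ± 1.9 CPM (SD, n = 3 each; adjusted p = 0.00391 by edgeR). None of the 8 transcription factors of the parathyroid and the pharyngeal pouches passed by edgeR in any of the 8 comparisons. At an unadjusted p under 0.05 there was 1 in FAD4T against WT females of 2 months, where 3087 of all 18493 genes had such a p, and 0 in the other comparisons.

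Calcium and phosphate transporters were a list of 13. Of the 9 that could be tested at 8 against 2 months, 3 rose and 1 fell, which is 44.4%, beside 32.6% of all genes (median log2 change 0.46, beside -0.01). Of 7 tested at 18 against 2 months 4 rose and 1 fell, which is 71.4%, beside 35.9% of all genes (median 0.90, beside -0.01). Trpv6, an epithelial calcium channel, was the one that fell each time. It was at 7.83 to 14.7 CPM (median 11.5) at 8 months, against 14.2 to 24.1 CPM (median 19) at 2 months, a fall by 0.67 on the log2 scale with an adjusted p of 1.49e-04 by edgeR. The ages did not overlap in any of the 4 strata, as for 32.7% of all genes in FAD4T males, 21.2% in WT males, 30.6% in FAD4T females and 12.2% in WT females. At 18 months, where it was chosen after its values were seen, it was at 2.97, 3.98 and 8.57 CPM, against 20.5, 27.9 and 19.1 CPM at 2 months, with an adjusted p of 0.0068. Slc34a2, a phosphate carrier, rose to 3.05 ± 2.82 CPM at 8 months, against 0.584 ± 0.374 CPM at 2 months (SD, n = 12 each; adjusted p = 0.00166). Airway and lung genes moved with it, 4 of 6 rising at 8 against 2 months, which is 66.7%, beside 32.6% of all genes, and their part in it was not tested. At 18 months Atp2b1, a plasma membrane calcium pump, rose to 89.3 ± 8.83 CPM, against 44 ± 6.69 CPM at 2 months, and Slc20a1, a phosphate carrier, to 69.3 ± 14.1 CPM, against 36.8 ± 4.74 CPM (SD, n = 3 each; adjusted p = 0.00167 and 0.00462 by edgeR).

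Slc34a1, a phosphate carrier of the kidney tubule that also belongs to the kidney list, was the only pathway gene to pass between genotypes. It had 0 counts in all 3 FAD4T females of 8 months, against 0.955 to 2.88 CPM in WT females (adjusted p = 0.0381 by edgeR), where the kidney genes differed as described. It also passed in males against females, at 1.57 ± 1.76 CPM, against 0.435 ± 0.897 CPM (SD, n = 12 each; adjusted p = 0.0382). In each of these comparisons it was 1 of 9 transporters tested, which is 11.1%, beside 0.0216% and 1.88% of all genes. In the FGF23 and klotho list 6 of 8 genes could be tested. In males against females 1 of the 6 passed, which is 16.7%, beside 1.88% of all genes. At 18 against 2 months 1 of the 6 passed as well, beside 35.9% of all genes. Klb, the co-receptor related to klotho, fell to 1.09 ± 0.438 CPM in males, against 2.03 ± 0.828 CPM in females (SD, n = 12 each; adjusted p = 0.0452). Of 7 adipocyte genes, 2 also fell in males and 0 rose, which is 28.6%, beside 1.88% of all genes, with a median log2 change of -0.43. The part of the adipocyte genes in the change of Klb was not tested. Galnt3, which protects FGF23 from cleavage, rose to 57.8 ± 13 CPM at 18 months, against 33 ± 2.87 CPM at 2 months (SD, n = 3 each; adjusted p = 0.0077), and is named after its value was seen.

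Among the genes that carry or activate vitamin D or partner its receptor, 12 were listed. At 8 against 2 months 2 of 12 rose and 1 fell, which is 25%, beside 32.6% of all genes (median log2 change 0.10, beside -0.01). Between 18 and 2 months 3 of 11 rose and 2 fell, which is 45.5%, beside 35.9% of all genes (median 0.30, beside -0.01). Gc, the vitamin D binding protein made by liver, had a median of 18.4 CPM (11.6 to 30 CPM) at 8 months, against a median of 0.284 CPM (0 to 178 CPM) at 2 months, with an adjusted p of 0.00162 by edgeR. Of 8 liver genes, 7 rose in the same comparison, which is 87.5%, beside 32.6% of all genes, and their part in the rise of Gc was not tested.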

How the data were processed

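The authors deposited counts of read pairs per gene, which featureCounts 1.6.0 took from the Ensembl release 88 annotation of GRCm38 with no strand option, per the file headers, from dUTP libraries that keep the strand, per the labels' protocols. GRCm39, edgeR, DESeq2, StringTie 1.3.4d, HISAT2 2.0.4 and cutadapt 1.9 are named too, per the submitters' processing notes. Groups came from the titles. WT males of 2 months numbered 4 to 6 were set beside the 18-month males. No 2 libraries were identical, and nothing in the labels says how the mice were bred or when glands were taken, so p-values measure the spread between these samples. The genes and lists were chosen with earlier results of these data known.

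Tests used edgeR 4.0.16 in R 4.3.3 on the deposited counts (TMM, filterByExpr with a minimum count of 10, robust quasi-likelihood fits, Benjamini-Hochberg adjustment at 0.05, prior count 0.125). One fit held the 24 libraries of the FAD4T set (18493 genes, 16 residual degrees of freedom) and another the 6 of the ageing set (16283 genes, 4). Fold changes are log2, and the standard error is the change divided by the square root of F. DESeq2 1.42.0 was an alternative. Symbols matched 50376 of 50686 identifiers. Pathway genes named were those with adjusted p under 0.05, at most 4 per comparison by smallest p. Most similar genes were the 10 (Pth) or 3 (others) with the highest Pearson's r of log2(CPM + 1), among genes with 1 CPM in 3 libraries, without unnamed models. The code was tested on simulated data.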

Additional observations from a re-analysis of the deposited data

How the results depend on the processing

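Direction and call of Cyp27b1 held at 18 against 2 months under all alternatives run (log2 fold change 2.52 to 3.44, adjusted p up to 0.0219, and 3.09 to 3.61 leaving out 1 library), and at 8 against 2 months (1.20 to 1.67, and 1.53 to 1.79 leaving out 1 library) except with the kidney level as a covariate, where it was 2.44 with 0 listed genes called. That fit called 0 of all genes, against 6027. The alternatives with Gcm2, follicular or kidney levels as covariates, and those without libraries of Gcm2 below 5 CPM, were chosen after seeing the data, and the cause of each change below was not tested. With the follicular covariate 1 listed gene passed in FAD4T against WT averaged, beside 1020 of all 18493 genes. With the Gcm2 covariate 2 passed at 8 against 2 months (Vdr and Cyp27b1), beside 5418 of 18493. In males against females 1 passed with that covariate, beside 439 of 18493, and 1 by DESeq2, beside 706 of 18445. The count of 0 listed genes held there in 7 of the 10 alternatives other than leaving out 1 library. Leaving out 1 library, 0 to 1 passed there. At 18 against 2 months 2 passed by DESeq2, beside 6259 of 16262 genes. Without libraries of low Gcm2 4 passed (Casr, Vdr, Cyp27b1 and Kl), beside 2616 of 16581. With the Gcm2 covariate 3 passed (Pth, Casr and Cyp27b1), beside 5832 of 16283, and 2 with that covariate and 2-month males 1 to 6, beside 1694 of 16840.

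Values that changed sign were of Cyp27b1 in females of 2 months, at -0.05 with the replicate block, -0.02 without thymocyte-rich libraries, -0.06 with the muscle covariate, -2.5e-03 with the Gcm2 covariate and -0.29 to 0.53 leaving out 1 library, and of Cyp27b1 in males of 8 months, at -0.09 without libraries of low Gcm2. The fit behind that last value left out 2 of the 3 WT males of 8 months. At 18 against 2 months Pth was -0.49 against 2-month males 1 to 3, -0.14 against 1 to 6, -1.15 with the Gcm2 covariate, -1.01 with that covariate and males 1 to 6, and -0.35 to 1.46 leaving out 1 library, and Kl was -0.06 against males 1 to 3. None of these sign changes had an adjusted p under 0.05 except the 2 of Pth with the Gcm2 covariate (0.00804 and 0.03).

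Over all genes, counts called ranged over the alternatives from 0 to 102 in FAD4T males of 2 months (0 reported), 0 to 293 in females of 2 months (0), 0 to 76 in females of 8 months (4), 0 to 1020 in the average (0), 0 to 6784 at 8 against 2 months (6027), 11 to 1015 in males against females (348) and 859 to 6287 at 18 against 2 months (5840), and leaving out 1 library from 0 to 36, 0 to 3001, 0 to 9, 0 to 1300, 4598 to 8126, 215 to 397 and 3651 to 5470. Males of 8 months had 0 genes called in all of these. For the interactions, DESeq2 called 25, 30 and 137 genes, against 0, 0 and 3 by edgeR. Libraries of the same title number in different groups had r of deviations of -0.43 to 0.46 (median 0.04, with 33 of 84 pairs over 0.1). Those of other numbers had -0.54 to 0.68 (median -0.02, with 53 of 168 pairs over 0.1). These values do not settle whether a number pairs libraries weakly. With the number as a block Cyp27b1 was 1.66 at 8 against 2 months and 0.64 in the FAD4T average. Within the ageing set no such fit could be made, since its 2 groups share no title numbers. Depth limits Cyp24a1, at 0 to 3 counts per library, and the spread of parathyroid transcript between mice limits Pth, Gcm2, Kl and Gata3.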

Other observations

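In the 9 libraries with Gcm2 below 5 CPM, which were picked by that value after the data were seen and are compared without a test, Kl, Casr and Vdr remained at the following levels. Kl was at 2.24, 3.38 and 2.9 CPM in the 3 libraries of 2 months, 10.6, 13, 10.7, 7.68 and 6.18 CPM in the 5 of 8 months and 31.7 CPM in the 1 of 18 months. Casr was at 5.36, 9.05 and 5.8 CPM at 2 months, 13.9, 10.1, 10.9, 19 and 13.2 CPM at 8 months and 14.1 CPM at 18 months. Vdr was at 31.2, 29.6 and 29.1 CPM at 2 months, 32.8, 33.4, 33.6, 39.8 and 36.2 CPM at 8 months and 24.6 CPM at 18 months. The kidney list, whose tissue expresses Kl, had a summed level of 0.743 to 1.24 CPM in the 18-month group and 0.544 to 1.31 CPM in FAD4T females of 8 months, which hold 2 of these libraries, and its part in the other values was not tested.

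Ranked by Spearman's rho in place of Pearson's r, the genes most like Pth began with Gcm2 at 0.96 and Sycp2l at 0.95, while Mcoln2, Spag5 and Adam23 entered the list at 0.94.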
